A study of Arabidopsis thaliana with 9 samples.

Results

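Binding of the transcription factors GRF1 and GRF3 was examined at 10 genes of the Arabidopsis circadian clock. The genes were LHY, CCA1, TOC1, PRR3, LKP2, ZTL, GI, ELF3, TIC and CDF3, 10 of the 27444 protein-coding genes on chromosomes 1 to 5. The list was chosen by GRF3 and GRF1 peaks and their folds in these same libraries, together with clock genes that lacked them. Peaks inside the span of each gene or within 1 kb of it were collected from all 6 peak lists. Their number at these genes is therefore a description and carries no test.

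The study consists of 9 ChIP-seq samples (chromatin immunoprecipitation with sequencing), in which DNA bound by a tagged protein is recovered with an antibody and sequenced. Whole plants of strain Ws, 2 weeks old and grown on MS medium, carried 35S:GFP, 35S:GRF1-GFP or 35S:GRF3-GFP (3 samples each), and the antibody was against GFP. The 35S promoter is strong and active in most plant tissues, so the tagged factors need not have been limited to their native cells or levels. Their levels and places are not known from these data. Plants with GFP alone (3 samples) were not analysed here, so no background measured in them stands beside the values.

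In the Arabidopsis clock, the related MYB proteins LHY and CCA1 act in the morning and repress evening genes such as TOC1, which represses them in turn. Other pseudo-response regulators and an evening complex scaffolded by ELF3 add further repression. ZTL and LKP2 are light-sensing F-box proteins that mark clock proteins for destruction, and GI binds to them. Growth-regulating factors (GRFs) are DNA-binding proteins known mainly as promoters of leaf growth.

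GRF3 peaks lay at 9 of the 10 clock genes in at least 1 library, and GRF1 peaks at ELF3 alone. The share of all genes with a peak in at least 1 library was not computed. In single libraries, a stricter rule, it was 6.02% to 15.5% for GRF3 and 3.31% to 4.84% for GRF1. The share for at least 1 library can be no lower than the highest of these, 15.5% for GRF3 and 4.84% for GRF1. In the GRF3 lists, LHY and LKP2 stood out, with highest folds of 8.86 to 11.9 in every library, while all other clock genes had folds below 3. The fold is the authors' enrichment of a peak over the background used in peak calling. ZTL had no peak in any library.

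**Figure D1:**
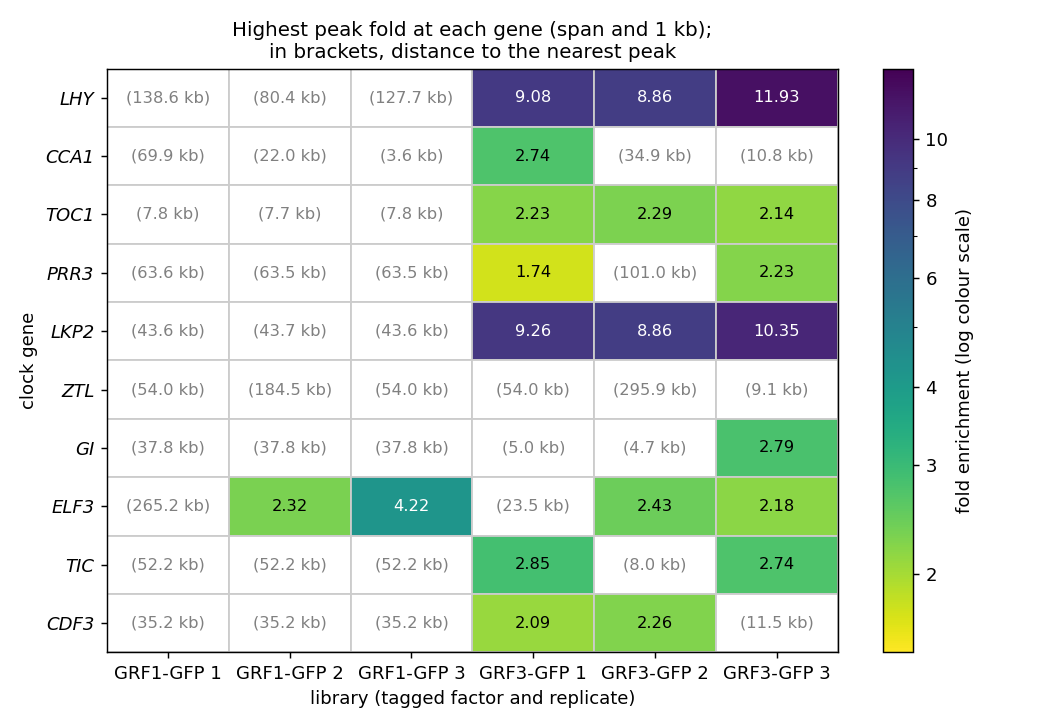
Rows are the 10 clock genes and columns the 6 libraries; a coloured cell gives the fold of the highest peak inside the gene span or within 1 kb, and brackets give the distance to the nearest peak where there was none. LHY and LKP2 are dark in all 3 GRF3-GFP libraries, and ELF3 holds the only coloured cells of the GRF1-GFP libraries.

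GRF3-GFP replicates 1, 2 and 3 had peaks at 7, 5 and 7 of the 10 genes (6.33 ± 1.15, SD, n = 3). Over all protein-coding genes the share with a peak under the same rule was 7.82% in replicate 1, 6.02% in replicate 2 and 15.5% in replicate 3, whose list was the longest, with 5944 peaks against 2258 and 2301. GRF1-GFP replicates 1, 2 and 3 had peaks at 0, 1 and 1 of the 10 genes (0.667 ± 0.577, SD, n = 3), against 3.31%, 4.84% and 4.26% of all protein-coding genes. Since the members were chosen with these peaks in view, nothing about a preference for clock genes can be read from these counts.

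A region is a run of overlapping peaks of 1 factor, and a region in at least 2 of 3 libraries was counted as shared. GRF3 had such a region at 7 of the 10 genes, against 5.98% of all protein-coding genes. Among the 12298 genes at least as long as the shortest member, CDF3, the share was 6.18%. In all 3 libraries, GRF3 had a region at 3 of the 10, namely LHY, LKP2 and TOC1, against 3.21% of all genes. GRF1 had a shared region at 1 of the 10 (3.3% of all genes) and none in all 3 libraries (2.42%). The GRF3 count fell to 4 without replicate 1 (4.22% of all genes) and to 4 without replicate 3 (3.58%). The genes found in both of the remaining libraries were LHY, TOC1, LKP2 and ELF3 in the first case, and LHY, TOC1, LKP2 and CDF3 in the second.

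Of the morning genes, LHY (AT1G01060, chromosome 1) carried a high GRF3 peak in every library. The peak spanned 33215 to 33616 in GRF3 replicate 1, 33205 to 33628 in replicate 2 and 33204 to 33626 in replicate 3 (TAIR10). Its fold was 9.08, 8.86 and 11.9 (9.95 ± 1.71, SD, n = 3). It was above the highest LKP2 peak in replicate 3 (10.4) and just below it in replicates 1 and 2 (9.26 and 8.86). Each library thus placed it high, at rank 167 of 2258 by fold in replicate 1, 193 of 2301 in replicate 2 and 97 of 5944 in replicate 3. The −log10 of its q-value was 52.6, 52.8 and 77.1.

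The LHY peak straddled the left edge of the gene. Summits lay 88, 88 and 74 bp inside the left edge of a span of 4507 bp, and differed by no more than 14 bp between libraries. The left borders differed by 11 bp and the right borders by 12 bp. The region began 33 bp from the span of the neighbouring gene PPa1, and its summits lay in LHY only. LHY is known to be transcribed toward lower coordinates, which makes the left edge its 3′ end. Whether the peak bears on LHY or on PPa1 was not tested. No GRF1 library had a peak near LHY: the nearest lay 138608, 80377 and 127665 bp away in replicates 1, 2 and 3.

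CCA1 (AT2G46830, chromosome 2), the close relative of LHY, had no shared region. The only peak within reach was in GRF3 replicate 1, at 19249643 to 19249879, with a fold of 2.74. It lay 728 bp to the right of CCA1, wholly inside the span of the next gene, DUF4. In GRF3 replicates 2 and 3 the nearest peaks were 34898 and 10762 bp away. The latter was the peak inside PRR9 (fold 2.23), a pseudo-response regulator gene of the clock. GRF1 peaks were at least 3576 bp from CCA1.

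TOC1 (AT5G61380, chromosome 5), the evening pseudo-response regulator, had a low but repeatable GRF3 peak. It spanned 24677165 to 24677461 in replicate 1, 24677213 to 24677490 in replicate 2 and 24677192 to 24677507 in replicate 3. The fold was 2.23, 2.29 and 2.14 (2.22 ± 0.08, SD, n = 3). The summits agreed within 14 bp, as closely as at LHY, although the fold was far lower. They lay 2406, 2402 and 2416 bp from the left edge, or at 67.1%, 66.9% and 67.3% of the span. By fold, the peak ranked 1424 of 2258, 1372 of 2301 and 4850 of 5944, which is the lower part of each list. The −log10 q was 2.67, 3.26 and 2.49, so the peak was lost at a stricter limit of 5. The nearest GRF1 peaks lay 7776, 7740 and 7768 bp to the left in replicates 1, 2 and 3, at about the same place in all of them.

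PRR3 (AT5G60100, chromosome 5), a pseudo-response regulator that binds TOC1 and shields it from ZTL, had no peak inside its span. Its GRF3 region, in replicates 1 and 3 (fold 1.74 and 2.23), lay 898 and 795 bp to the right. Both peaks, 24202313 to 24202587 and 24202210 to 24202454, were wholly inside the neighbouring gene PUM18, a Pumilio-family gene. PRR3 therefore counted only through the 1 kb margin, and it dropped out when the margin was 500 bp. In GRF3 replicate 2 the nearest peak was 100955 bp away. The peaks at PRR3 and CCA1 were the ones just inside the 1 kb limit. The nearest ones outside it were 3576 bp from CCA1 in GRF1 replicate 3 and 4745 and 4978 bp from GI in GRF3 replicates 2 and 1.

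**Figure D2:**
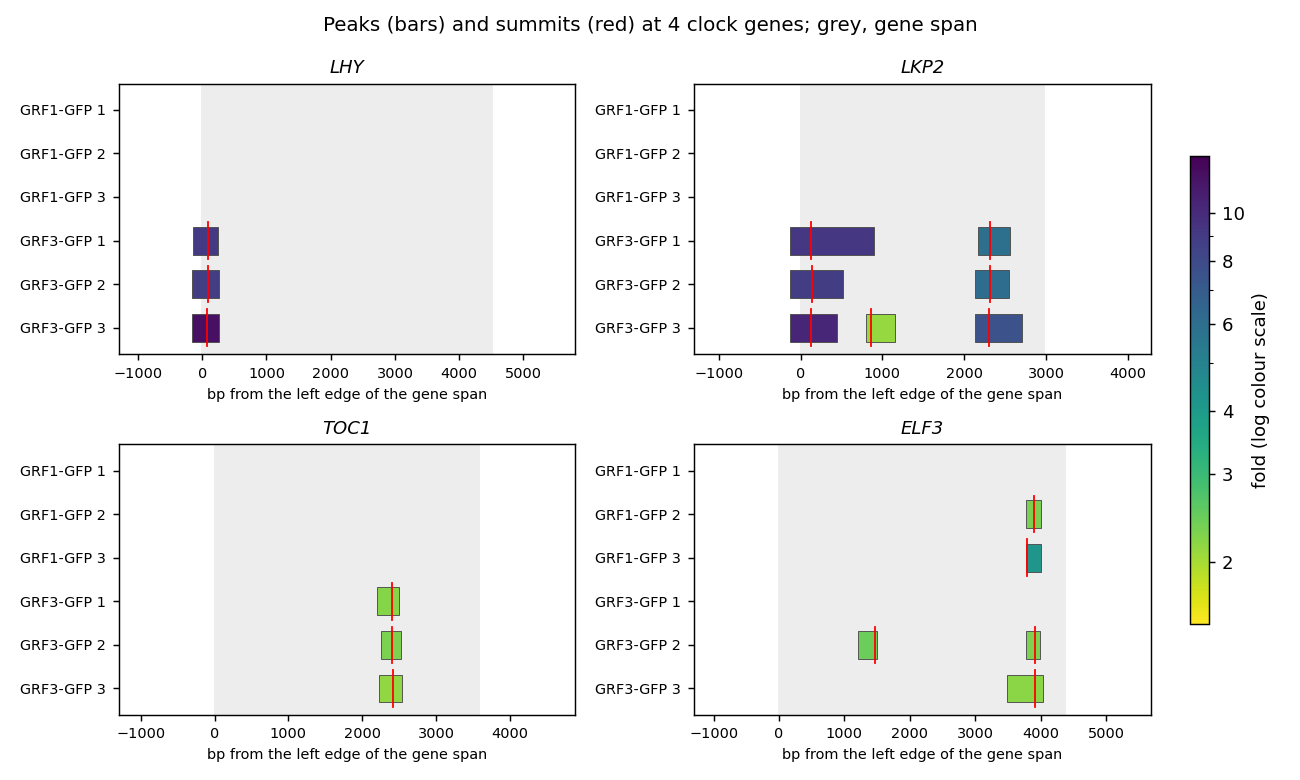
Peaks (bars, coloured by fold on a log scale) and summits (red lines) of the 6 libraries at LHY, LKP2, TOC1 and ELF3, by distance in bp from the left edge of the gene span (grey). The LHY peak and the first LKP2 peak of all 3 GRF3-GFP libraries straddle the left edge, while TOC1 summits sit at 66.9% to 67.3% of the span and ELF3 peaks of both factors overlap near the right edge.

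Among the light-sensing F-box genes, LKP2 (AT2G18915, chromosome 2) was the only member with 2 GRF3 regions in all 3 libraries. The first region began at 8194385, 8194385 and 8194383 in replicates 1, 2 and 3 and reached to 8195405, 8195031 and 8194953. Its fold was 9.26, 8.86 and 10.4 (9.49 ± 0.77, SD, n = 3), close to that at LHY. The left border varied by 2 bp, whereas the right border varied by 452 bp. Replicate 3 had a separate peak there, 8195311 to 8195661, with a fold of 2.11.

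Summits of the first LKP2 region lay 128, 137 and 126 bp inside the left edge of a span of 2972 bp. Like the peak at LHY, the region straddled that edge, and it shared 14 bp with the neighbouring gene AT2G18910. The second region lay at 8196679 to 8197066, 8196645 to 8197055 and 8196641 to 8197209. Its fold was 5.90, 6.05 and 7.53 (6.49 ± 0.90, SD, n = 3), lower than the first in each library. Its summits were 661, 662 and 671 bp from the right edge and within 10 bp of each other. In replicate 3 it also reached into the long noncoding RNA gene AT2G18917. The nearest GRF1 peak was 43650, 43651 and 43650 bp away.

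ZTL (AT5G57360, chromosome 5), the closest relative of LKP2 among the members, had no peak within 1 kb in any of the 6 libraries. The nearest GRF3 peaks lay 53982, 295891 and 9091 bp away in replicates 1, 2 and 3, and the nearest GRF1 peaks 53980, 184522 and 53979 bp. In GRF1 replicates 1 and 3 and GRF3 replicate 1, the nearest peak lay to the right and within a few bases of the same place. GI (AT1G22770, chromosome 1), which binds the LKP2 and ZTL proteins, had a peak in GRF3 replicate 3 only, at 8065774 to 8065998 (fold 2.79), inside the gene. In GRF3 replicates 1 and 2 the nearest peaks were 4978 and 4745 bp to the left. The 3 GRF1 libraries had their nearest peak 37792, 37789 and 37808 bp to the left, so none had one at GI.

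ELF3 (AT2G25930, chromosome 2), scaffold of the evening complex, was the only member with peaks of both factors. GRF1 replicates 2 and 3 had peaks at 11062714 to 11062953 and 11062714 to 11062956, with folds of 2.32 and 4.22. GRF3 replicates 2 and 3 had peaks at 11062718 to 11062930 and 11062429 to 11062983, with folds of 2.30 and 2.18. The GRF1 region of 243 bp thus lay wholly inside the GRF3 region of 555 bp. Replicate 1 of either factor had no peak there: its nearest lay 265223 bp away for GRF1 and 23543 bp for GRF3.

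Within ELF3, 3 of these 4 summits lay 474 bp (GRF1 replicate 2), 464 bp (GRF3 replicate 2) and 466 bp (GRF3 replicate 3) from the right edge. That of GRF1 replicate 3 lay 587 bp from it, near the border of its peak. GRF3 replicate 2 had a further peak at 11060156 to 11060446 (fold 2.43), which no other library shared. Folds of the factors are not compared, since each is relative to its own library's background.

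TIC (AT3G22380, chromosome 3), a nuclear regulator of the clock, had 2 GRF3 regions inside its span, both in replicates 1 and 3 and not in replicate 2. The first had peaks at 7916546 to 7916766 (fold 2.85) and 7916530 to 7917230 (fold 2.74), with summits 46 bp apart. The second had peaks at 7918152 to 7918430 (fold 1.76) and 7917961 to 7918361 (fold 2.24), with summits 284 bp apart, so its position was less well fixed. Replicate 3 had another peak at 7916062 to 7916306 (fold 2.65). Replicate 2 had its nearest peak 8041 bp away. At 6803 bp TIC was the longest member, longer than 98.0% of protein-coding genes.

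CDF3 (AT3G47500, chromosome 3), a DOF repressor of the family that links the clock to flowering time, had a GRF3 region in replicates 1 and 2. The peaks were 17504636 to 17505343 (fold 2.09) and 17504516 to 17504880 (fold 2.26). Their summits lay 279 bp apart inside the gene, at 45.0% of the span in replicate 1 and 32.5% in replicate 2, counted from the left edge. Replicate 3, although its list was the longest, had no peak within 1 kb, the nearest being 11475 bp away. The nearest GRF1 peaks were 35158, 35161 and 35159 bp away, and had folds of 14.2, 9.58 and 16.3.

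**Figure D3:**
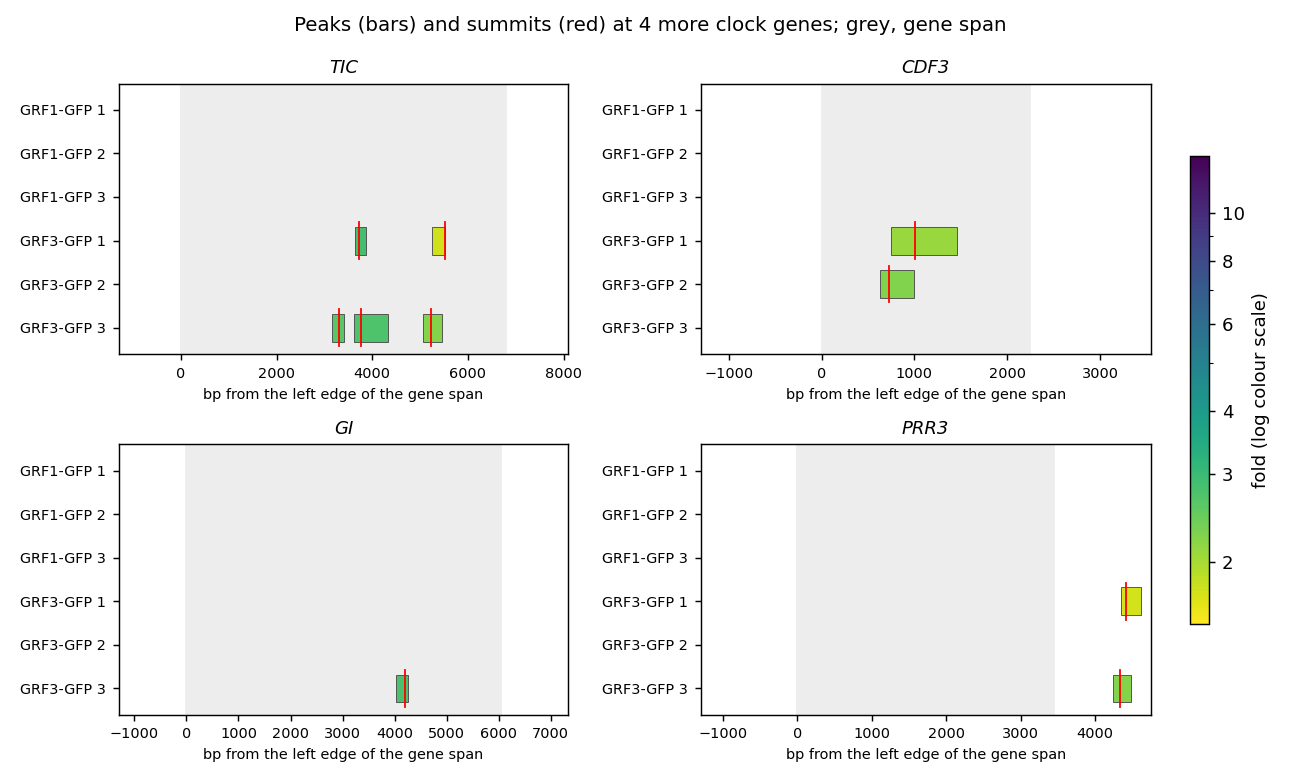
The same display for TIC, CDF3, GI and PRR3, with distance in bp from the left edge of the gene span (grey) and fold as colour on a log scale. Peaks are in GRF3-GFP libraries only, all are pale (fold below 3), none is in all 3 libraries, and those at PRR3 lie outside the span.

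Set against whole lists, the clock genes fell into a high and a low class. Of the 27 GRF3 peaks at members, 9 had a fold of at least 4, namely 1 at LHY and 2 at LKP2 in each library. Such peaks made up 24.4% of the list in GRF3 replicate 1, 20.9% in replicate 2 and 12.0% in replicate 3. Among all 2203 shared GRF3 regions, ranked by mean fold, the LHY region was 137th and the LKP2 regions were 214th and 457th. The regions of TIC were 911th and 2016th, that of ELF3 1677th, TOC1 1712th, CDF3 1785th and PRR3 2031st. TOC1 was thus in all 3 libraries despite a fold below that of most shared regions, whose median was 2.62.

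**Figure D4:**
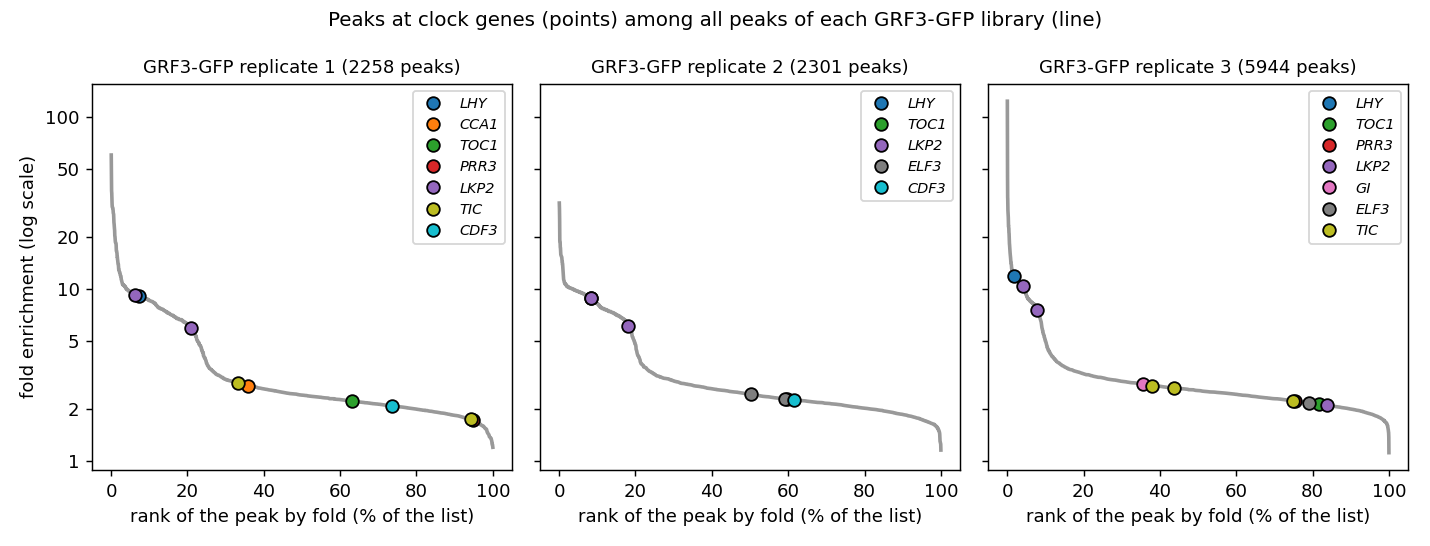
Fold of all peaks (grey line, log scale) against their rank in per cent of the list, for GRF3-GFP replicates 1, 2 and 3, with peaks at clock genes as points. The peak of LHY and 2 peaks of LKP2 lie on the upper shelf of each curve; the peaks of the other clock genes, and another LKP2 peak in replicate 3 (fold 2.11), lie on the long flat part with folds below 3.

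The place of the summits also set the highest peaks of LHY and LKP2 apart from the other peaks inside members. These highest peaks had summits 74 to 137 bp inside a gene edge, whereas all other summits inside members were at least 464 bp from an edge. The others included the second LKP2 region, which was also of high fold and had summits 661, 662 and 671 bp from an edge. Place therefore did not separate LKP2 as a whole from the other members. Across the whole GRF3 lists, high and low peaks with a summit inside a gene differed too. Of the summits inside protein-coding genes whose peak had a fold of 4 or more, 39.1%, 45.9% and 35.0% were within 150 bp of a gene edge in replicates 1, 2 and 3 (40.0 ± 5.6%, SD, n = 3). Among peaks with lower folds it was 3.07%, 5.47% and 4.12% (4.22 ± 1.20%, SD, n = 3). The difference exceeded the spread between libraries, and the classes did not overlap. Most high regions, however, had their summit outside protein-coding genes. Only 27.2% of the 545 shared GRF3 regions with a mean fold of at least 4 had it inside one. Over all 545, 10.8% had it inside and within 150 bp of an edge, against 1.33% of the 1658 lower regions. The difference was not tested, because the 150 bp limit was chosen after the clock genes had been seen. In the GRF1 lists the shares were 31.7 ± 7.8% and 19.2 ± 9.8% (SD, n = 3), and replicate 1 had the opposite order (25.2% against 29.8%). Folds of at least 4 made up 20.4%, 52.2% and 34.8% of the GRF1 lists in replicates 1, 2 and 3. The limit thus cut these lists at unlike places, and the factors are not compared.

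**Figure D5:**
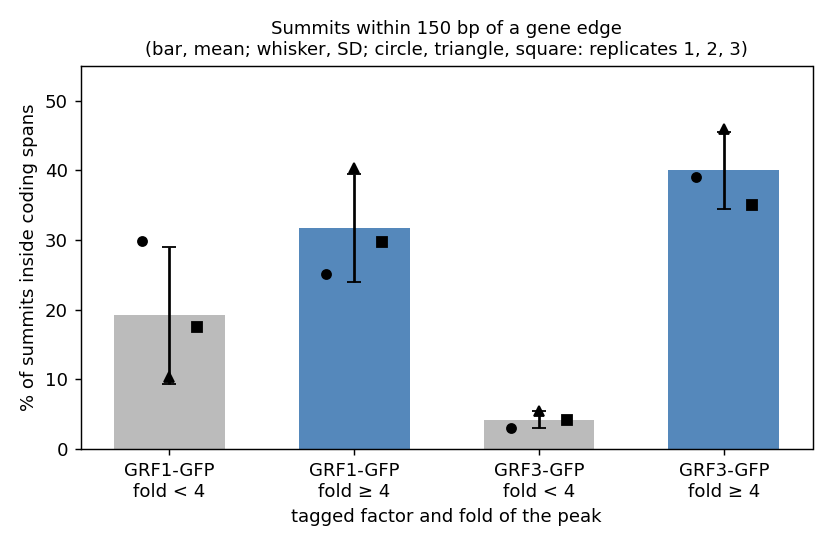
Share of peak summits inside protein-coding genes that lay within 150 bp of a gene edge, by factor and fold class (bars, mean of 3 libraries; whiskers, SD; circle, triangle and square, replicates 1, 2 and 3). In the GRF3-GFP libraries the share is 35.0% to 45.9% for folds of at least 4, and 3.07% to 5.47% below.

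A further 32 clock genes were listed from general knowledge, with earlier results of these data known. None had a shared GRF3 region, against 5.98% of all genes. A GRF3 peak in at least 1 library was found at 11 (34.4%), but the share of all genes under that looser rule was not computed. It can be no lower than the 15.5% of replicate 3 alone. In single GRF3 libraries, 5 of the 32 (15.6%) had a peak in replicate 1, 0 in replicate 2 and 7 (21.9%) in replicate 3. The shares of all genes were 7.82%, 6.02% and 15.5%, so the list was above them in replicates 1 and 3 and below in replicate 2. The 10 members had been chosen with such regions in view, so a low count among the remaining clock genes follows at least in part from that choice. Nothing about clock genes in general can be read from it.

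By family, the pseudo-response regulator PRR5 had GRF3 peaks in replicate 1 (fold 2.42, inside the gene) and in replicate 3 (fold 2.48, 942 bp to the left), which did not overlap. The second of these lay in the neighbouring gene AT5G24460. PRR7 had 1 peak in replicate 1 (fold 1.83), which lay in its neighbour RHL2, and PRR9 had 1 inside its span in replicate 3 (fold 2.23). FKF1, the other light-sensing F-box gene of the LKP2 family, had 1 peak in replicate 3 (fold 2.13). CDF5, a relative of CDF3, also had 1 in replicate 3 (fold 1.93). Of the evening complex and its kin, BOA had 1 peak in replicate 1 (fold 1.94), while ELF4 and LUX (PCL1 in the gene table) had none. Of the RVE genes, relatives of LHY and CCA1, RVE8 had 1 peak within 1 kb in replicate 3 (fold 2.78), in its neighbour AT3G09620. RVE4 had 1 in replicate 3 (fold 2.29), which lay 360 bp to its left, in the neighbouring gene AT5G02830. No GRF3 peak within 1 kb of the 32 genes had a higher fold than that of RVE8.

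Just beyond 1 kb, higher GRF3 peaks lay to the left of 2 RVE genes. At RVE7 (EPR1 in the gene table) they were 1351, 1422 and 1358 bp away in replicates 1, 2 and 3, with folds of 6.24, 5.25 and 6.87. At RVE8 they were 1080 and 1360 bp away in replicates 1 and 2, with folds of 7.24 and 6.21. These folds were similar to those of the second LKP2 region, and the 1 kb limit alone kept them out of the counts.

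GRF1 had a shared region at 1 of the 32 (3.1%), near the 3.3% of all protein-coding genes. The gene was LWD2 (AT3G26640, chromosome 3), which encodes a WD-repeat protein of the clock. The peak was at 9792831 to 9793402 in replicate 1, 9792769 to 9793437 in replicate 2 and 9792785 to 9793421 in replicate 3. Its fold was 2.25, 5.00 and 3.62 (3.62 ± 1.37, SD, n = 3), and no GRF3 library had a peak within 1 kb. The summits agreed within 19 bp and the median summit lay 251 bp to the left of LWD2, inside the neighbouring gene AT3G26630. The region reached 259 bp into LWD2. LWD2 was the only gene of the 42 with a GRF1 peak in all 3 libraries. Of all protein-coding genes, 2.42% had a GRF1 region in all 3.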

How the data were processed

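Each of 6 ChIP-seq libraries came with 1 peak list, so peaks had been called per library. The submitters' processing notes name FastQC, Trimmomatic, Bowtie2, MACS2 and TAIR10, with no version, setting or role. Which control was used for peak calling is not stated there. Per the layout of the deposited lists, each peak has a summit, a fold (ratio) over background, and a p-value and q-value written as −log10. The authors' deposited score equals 10 times the −log10 q without its decimals and was not used. The lists hold no counts, so depth is unknown and no interval that needs it was computed.

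Gene names and spans were read from RefSeq's gene table (TAIR10.1), which holds no strand, exons or sequence. All 10 members and the 32 other clock genes matched by locus. Distances take both assemblies' positions as the same. Positions are printed as in the deposited lists (TAIR10), counted from 1. A peak counted at a gene if it overlapped the span extended by 1 kb. Regions joined peaks of different libraries of a factor that overlapped by at least 1 bp. Where a library had several peaks in a region, its highest fold entered the mean. The members and lists were chosen with earlier results of these data known, and no test was run. All members are named; of the other clock genes the rule named those with a shared region, and PRR5, PRR7, PRR9, FKF1, CDF5, BOA, ELF4, LUX, RVE4, RVE7 and RVE8 were named after their values were seen. The steps were tested on simulated data. Calculations used Python 3.11.15, numpy 2.4.6 and pandas 2.3.3. Alternatives were stricter peak limits, other margins, summits in place of peaks, lists of equal length, other region rules and leaving out each library.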

Additional observations from a re-analysis of the deposited data

How the results depend on the processing

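The GRF3 count of 7 clock genes depended on weak peaks. It was 3 with a −log10 q of at least 5 (3.53% of all genes) and 2 with a fold of at least 4 (2.68%). It was 2 with lists cut to the shortest length of 1122 peaks (3.18%), and 3 with regions in all 3 libraries (3.21%). When 1 GRF3 library was left out, it was 4 to 5 (3.58% to 4.55% of all genes). LHY and LKP2 were counted in every one of these settings. The mean number of members with a peak per GRF3 library was 3, 2 and 2.33 under the first 3 of those settings, and 6 to 7 with a library left out. For GRF1, ELF3 was lost with a fold of at least 4 (0 genes, against 2.09% of all). It was also lost with regions in all 3 libraries (0 genes, against 2.42%). With a library left out the GRF1 count was 0 to 1, against 2.61% to 2.79% of all genes. The GRF1 region at LWD2 was lost with a fold of at least 4 (0 genes). With a margin of 3 kb, 3 other clock genes (RVE7, RVE8 and JMJ30) gained a shared GRF3 region, where 9.8% of all genes had one. Averaging all peaks of a library at LKP2 gave a fold of 7.23 in place of 9.49, since this mixes its regions. The share of high GRF3 summits near a gene edge was 29.0% with a limit of 100 bp and 63.1% with 300 bp, and 37.0% to 42.5% with a library left out; these alternatives were chosen after seeing the data. In all, 68 of 86 alternative values stayed close to the reported ones and 18 moved. A mean or share was called close when it differed by less than the SD between libraries. Leaving out 1 of 3 libraries always shifts a mean by less than that SD. Those alternatives for means and shares could therefore only come out as close and show nothing about stability. Averaging the peaks of a library at LHY and TOC1 could not change the fold either, since each had 1 peak per library. For counts the limit was loose, and 5 members in place of 7 passed as close. Of the 68, 11 were the count of other clock genes with a GRF3 region, which stayed at 0. The GRF3 member count moved in 6 alternatives and stayed close in 6. The causes were not tested. No paired analysis was possible because all results are descriptions that come from no test, so there was no fit to put a replicate block into. The missing depth limits what the absence of a peak means: a gene without a peak, such as ZTL, was not shown to be unbound.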
